A study of Mus musculus with 12 samples.

Results

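Cholesterol synthesis is described here through 7 genes chosen by name, Hmgcs1, Idi1, Fdft1, Sqle, Lss, Cyp51 and Dhcr7, in the hippocampus of Dek constitutive knockout (cKO) and wild-type (WT) mice. The members were found by matching the Ensembl identifiers of the TPM table (a level scaled to the library total and corrected for transcript length) to gene symbols, and 6 of the 7 had a row among 26409 genes. Hmgcs1, the cytosolic HMG-CoA synthase, was not analysed here. All 6 measured members passed the filter on low values (mean level 0.1 TPM or more), which kept 18197 genes.

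The study sequenced poly-A selected RNA from the microdissected hippocampus of 12 adult mice, 3 female WT, 3 male WT, 3 female Dek cKO and 3 male Dek cKO. The labels number the samples of a group but do not say that each is a different animal, so p-values measure the spread between these samples. Dek encodes a chromatin-bound protein. In the Dek cKO animals a loxP-flanked stretch of exons 3 and 4 had been removed in the germline by Cre under the CMV promoter, so that the deletion was present in every tissue and not only in neurons, and the Cre allele was bred out afterwards. WT controls lacked the deletion, both genotypes were on the C57Bl/6 background, and by the labels tissue was taken after the last behavioral test. Animals were aged 6 to 12 months by the methods, without an age for each sample, and no treatment is named.

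The brain makes almost all of its own cholesterol, because lipoprotein cholesterol does not pass the blood-brain barrier. Acetyl-CoA is built up to HMG-CoA and mevalonate, then to isoprenoid units that are joined to squalene, and squalene is oxidised, closed into the ring of lanosterol and trimmed to cholesterol. SREBP2, which binds sterol regulatory elements next to NF-Y (CCAAT box) and Sp1 (GC box) sites, switches these genes on together when cellular sterol is low. Myelinating oligodendrocytes and astrocytes are major sites of synthesis in the adult brain.

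Since the enzymes share this regulator, the sequences upstream of the members were searched on both strands for 3 short motifs, the sterol regulatory element TCACNCCAC, the CCAAT box CCAAT and the GC box GGGCGG. RefSeq windows (GRCm38.p6) of 250 bases before to 50 bases after the start matched 5 of the 7 members. Sqle and Fdft1 had no entry. The upstream stretches of Lss, Cyp51 and Dhcr7 are shown because they cover the ring-closing enzyme and 2 enzymes after it. They end before the first annotated transcript start, run in the direction of the gene, and carry the CCAAT boxes and GC boxes of either strand in capitals.

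Lss, chr10:76531355-76531564: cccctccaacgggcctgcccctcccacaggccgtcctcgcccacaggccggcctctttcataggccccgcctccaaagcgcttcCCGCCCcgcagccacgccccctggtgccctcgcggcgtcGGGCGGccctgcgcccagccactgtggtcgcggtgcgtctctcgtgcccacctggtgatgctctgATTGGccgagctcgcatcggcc
Cyp51, chr5:4104747-4104947, minus strand: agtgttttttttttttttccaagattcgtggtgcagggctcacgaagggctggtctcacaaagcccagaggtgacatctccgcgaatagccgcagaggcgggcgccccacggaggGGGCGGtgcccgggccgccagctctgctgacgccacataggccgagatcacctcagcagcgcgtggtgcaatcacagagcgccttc
Dhcr7, chr7:143822917-143823144: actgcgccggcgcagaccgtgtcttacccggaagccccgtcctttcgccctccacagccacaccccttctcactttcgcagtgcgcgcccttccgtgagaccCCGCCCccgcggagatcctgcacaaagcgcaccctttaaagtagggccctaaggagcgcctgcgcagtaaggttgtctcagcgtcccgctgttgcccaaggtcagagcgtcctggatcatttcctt

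The Lss stretch held 1 CCAAT box and 2 GC boxes, and those of Cyp51 and Dhcr7 held 1 GC box each. In the full windows a CCAAT box stood 29 bases before the RefSeq start of Cyp51 and 45 and 14 bases before that of Idi1. These boxes lay past the first annotated transcript start of their gene. The sterol regulatory element as spelled occurred in the window of Hmgcs1, 137 bases before its RefSeq start. None of 19 windows of the other enzymes listed here held it. Among all 32851 windows 1.24% held this element, 37.4% a CCAAT box and 35.7% a GC box, and of the 19 enzyme windows 15 held a CCAAT box and 15 a GC box. A match describes the letters in the window and not occupancy by a factor.

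Dek itself was first examined as a check of the genotype labels. It ranged from 44.2 to 51.9 TPM in WT libraries and from 5.55 to 9.25 TPM in Dek cKO libraries, with a log2 fold change of -2.74 (SE 0.10, adjusted p = 1.17e-08). Column sums were similar, at 825750 to 845553 TPM, and TPM does not keep the number of reads behind a value. These sums are below the total to which TPM is scaled, so part of the signal lies outside the rows used here. Shares and percentiles of all genes refer to those rows. The methods name 1 target depth for all libraries, and the read totals reached were not analysed here. In 2 libraries, those labelled female cKO 3 and male cKO 1, the Y-linked genes went against the labelled sex, and values without them stand beside the results that they move. The 3 female WT libraries carry another name prefix (C57) than the other 9 (CMV), and prefix and group cannot be told apart there. Neuronal markers summed to 3527 to 3941 TPM in WT and 3522 to 3924 TPM in Dek cKO libraries, and those of hippocampal neurons to 282 to 314 TPM and 230 to 318 TPM, with every marker present in every library.

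All 6 measured members were expressed in all 12 libraries. None passed the threshold between the genotypes, set as a fold change over 1.2 and an adjusted p below 0.05, where 0.148% of all tested genes passed (27 genes). Lss, which closes oxidised squalene into lanosterol, had the smallest unadjusted p among them (0.0156) and was 1.11-fold higher in Dek cKO, but its adjusted p was 0.599. Fdft1, the squalene synthase, varied most, and its 2 lowest values were in the libraries whose Y-linked genes went against their labels. In no member did all 6 values of one genotype lie outside the range of the other, which 0.676% of all genes did.

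**Figure D1:**
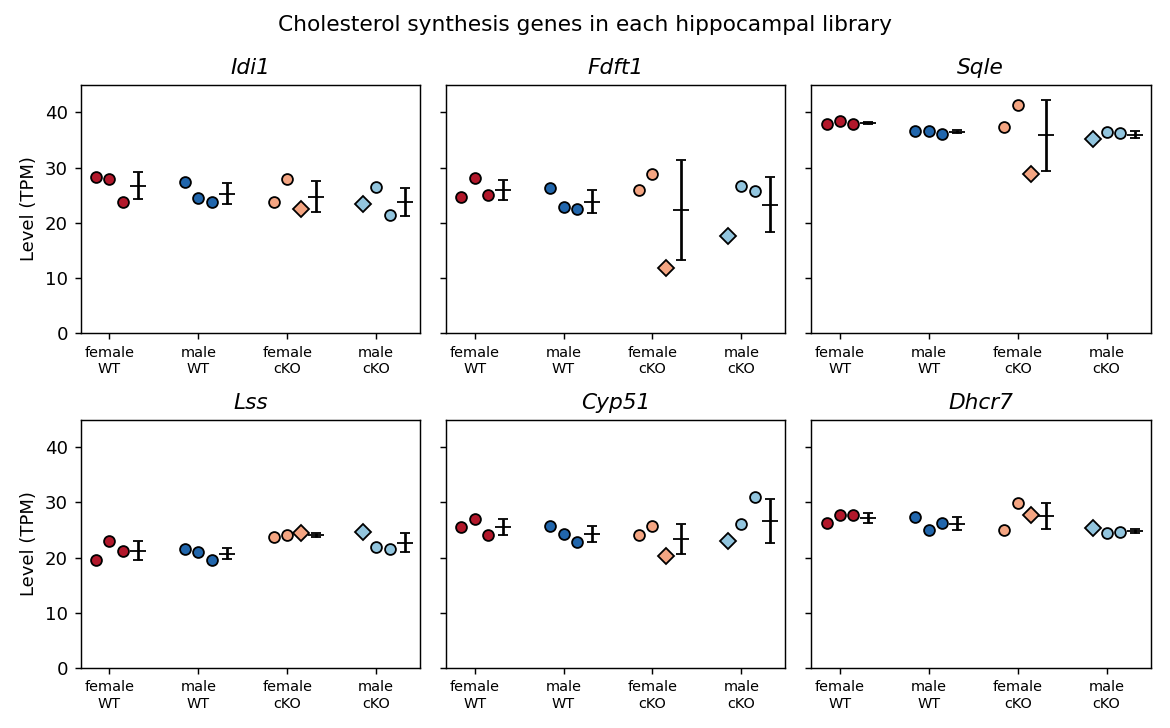
Level in TPM (vertical axis, from 0) of the 6 measured members in each library, by group along the horizontal axis. Circles are libraries, diamonds the 2 libraries whose Y-linked genes go against their sex label, and bars the mean with the SD of 3 libraries. The genotypes overlap in all 6 genes, and Fdft1 has its lowest points, 11.9 and 17.6 TPM, in the 2 diamonds.

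Averaged over the 12 libraries, Sqle was the most abundant member at 36.6 ± 2.90 TPM (SD, n = 12). Dhcr7 (26.4 ± 1.66 TPM), Idi1 (25.1 ± 2.36 TPM), Cyp51 (25.0 ± 2.61 TPM), Fdft1 (23.8 ± 4.79 TPM) and Lss (22.2 ± 1.76 TPM) followed, and each differed from its neighbour in this order by less than their SD. Only the step from Sqle to Dhcr7 exceeded the spread of both genes. These levels lay between percentiles 67.0 and 77.9 of all tested genes. The coefficient of variation ran from 6.28% for Dhcr7 to 20.1% for Fdft1.

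Idi1 (ENSMUSG00000058258, chr13:8885501-8892451, plus strand) isomerises isopentenyl diphosphate to the form with which isoprenoid chains begin. It measured 28.4, 27.9 and 23.9 TPM in female WT, 27.4, 24.6 and 23.8 TPM in male WT, 23.8, 27.9 and 22.5 TPM in female Dek cKO and 23.4, 26.5 and 21.5 TPM in male Dek cKO libraries. High and low libraries occurred in every group, and the genotypes overlapped. The log2 fold change, on the scale of log2(TPM + 0.1) as for all those that follow, was -0.10 (95% interval -0.26 to 0.06, adjusted p = 0.885).

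Fdft1 (ENSMUSG00000021273, chr14:63145150-63179578, minus strand) joins a pair of farnesyl diphosphates to squalene, the first step committed to sterols. Its values were 24.7, 28.1 and 25.0 TPM in female WT, 26.2, 22.8 and 22.5 TPM in male WT, 26.0, 28.9 and 11.9 TPM in female Dek cKO and 17.6, 26.6 and 25.7 TPM in male Dek cKO libraries. The libraries labelled female cKO 3 and male cKO 1 were lower than all 10 others, while the remaining 4 Dek cKO libraries, at 25.7 to 28.9 TPM, lay in the upper part of the WT range or just above it. Over all 12 libraries the log2 fold change was -0.19 (95% interval -0.58 to 0.21, adjusted p = 0.919), and without those 2 libraries it was 0.11. The SD of Fdft1 within groups was larger than that of 97.3% of 5290 genes of similar level. At its end Fdft1 shares 774 bases (chr14:63145150-63145923) with Ctsb, a gene of the opposite strand at 139 to 171 TPM, and since the sources used here do not say whether strand was used in counting, the level of Fdft1 is uncertain. The libraries were made with a kit that marks strand. Ctsb stood at 171 TPM in female cKO 3 and 159 TPM in male cKO 1, and its part in the low Fdft1 values was not tested.

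Sqle (ENSMUSG00000022351, chr15:59315077-59331192, plus strand) oxidises squalene and is one of the slow steps of the pathway. It was almost level in WT mice, at 38.0, 38.4 and 37.9 TPM in females and 36.7, 36.6 and 36.2 TPM in males. Female Dek cKO libraries had 37.4, 41.4 and 28.8 TPM and male Dek cKO libraries 35.2, 36.4 and 36.3 TPM. Both the highest and the lowest value were thus in libraries labelled female Dek cKO, the lowest again in female cKO 3, whose Y-linked genes go against that label. The SD was 0.915 TPM over the 6 WT and 4.08 TPM over the 6 Dek cKO libraries, and the log2 fold change was -0.06 (95% interval -0.21 to 0.09, adjusted p = 0.938), or 0.02 without the 2 libraries of conflicting sex.

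Lss (ENSMUSG00000033105, chr10:76531588-76557138, plus strand), whose upstream sequence is given above, had the smallest SD within groups after Dhcr7 on the log2 scale. It measured 19.5, 23.0 and 21.2 TPM in female WT and 21.6, 20.9 and 19.6 TPM in male WT libraries, against 23.6, 24.1 and 24.4 TPM in female Dek cKO and 24.6, 21.8 and 21.6 TPM in male Dek cKO libraries. In males the ranges met at 21.6 TPM. In females they did not meet, but how many of all genes separate 3 from 3 libraries was not counted. The highest female value by label (24.4 TPM) was in female cKO 3 and the highest male value (24.6 TPM) in male cKO 1. Those are the 2 libraries of conflicting sex. The mean was 20.97 ± 1.29 TPM in WT and 23.4 ± 1.32 TPM in Dek cKO (SD, n = 6 each), a log2 fold change of 0.15 (95% interval 0.03 to 0.28). The unadjusted p was 0.0156 by limma and 0.0152 by the exact two-sided permutation test, whose smallest possible p is 0.00216, and 6.64% of all genes had an unadjusted p under 0.05. After adjustment over all genes the difference did not pass (adjusted p = 0.599). The estimate stayed between 0.12 and 0.18 under every alternative, and without the 2 libraries of conflicting sex it was 0.12 with an unadjusted p of 0.0775 (limma, adjusted p = 0.727).

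Cyp51 (ENSMUSG00000001467, chr5:4081145-4104746, minus strand) removes the first methyl group from lanosterol. It was present at 25.6, 27.0 and 24.1 TPM in female WT, 25.7, 24.2 and 22.9 TPM in male WT, 24.1, 25.6 and 20.2 TPM in female Dek cKO and 23.1, 26.0 and 30.9 TPM in male Dek cKO libraries. The Dek cKO libraries held both extremes, the lowest in female cKO 3 and the highest in male cKO 3. The genotype means were equal within error, 24.9 ± 1.48 TPM in WT and 25.0 ± 3.57 TPM in Dek cKO (SD, n = 6 each), and the log2 fold change was 0.00 (95% interval -0.19 to 0.18, adjusted p = 0.999). Without the 2 libraries of conflicting sex it was 0.09.

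Dhcr7 (ENSMUSG00000058454, chr7:143823145-143848410, plus strand) catalyses the last reduction to cholesterol, and its loss causes Smith-Lemli-Opitz syndrome. It was found at 26.2, 27.7 and 27.8 TPM in female WT, 27.3, 24.9 and 26.3 TPM in male WT, 25.0, 29.8 and 27.8 TPM in female Dek cKO and 25.3, 24.5 and 24.6 TPM in male Dek cKO libraries. The groups overlapped, with the narrowest spread of the 6 members. The log2 fold change was -0.03 (95% interval -0.15 to 0.09, adjusted p = 0.971).

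For Idi1, Sqle, Cyp51 and Dhcr7 the interval of the fold change thus reached from 0.835 at the lowest to 1.13 at the highest, and for Fdft1 from 0.668 to 1.16. Differences inside the interval of a gene were not excluded for that gene with 6 libraries of each genotype. Of the 6 members 1 was higher and 5 were lower in Dek cKO, with a median log2 fold change of -0.05, whereas the median over all tested genes was 0.02 and 55.8% of them were higher. With the 2 libraries of conflicting sex left out, Sqle, Fdft1 and Cyp51 changed sign.

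The design also asks whether the genotypes differed within each sex and whether that difference depended on sex. In females no member passed the threshold (0.0165% of all genes did). The log2 fold changes were -0.11 for Idi1, -0.32 for Fdft1, -0.10 for Sqle, 0.18 for Lss, -0.14 for Cyp51 and 0.01 for Dhcr7. Lss alone had an unadjusted p under 0.05 in females (0.0465, limma, adjusted p = 0.852), as 5.79% of all genes did. This p rose above 0.05 when single libraries were left out, to 0.0912 without female cKO 3 and 0.152 without female WT 1 by limma, with log2 fold changes of 0.17 and 0.12. Without female cKO 3, the library of conflicting sex, the female value was 0.08 for Fdft1, 0.05 for Sqle, -0.05 for Idi1 and -0.04 for Cyp51.

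In males no member passed either (0.0165% of all genes did), and none had an unadjusted p under 0.05 (5.45% of all genes). The male log2 fold changes were -0.09 for Idi1, -0.05 for Fdft1, -0.02 for Sqle, 0.13 for Lss, 0.13 for Cyp51 and -0.08 for Dhcr7. Without male cKO 1, the library of conflicting sex, Fdft1 was at 0.14, Lss at 0.07 and Cyp51 at 0.23. Without male cKO 3 Cyp51 was at 0.01 and Idi1 at -0.02, and without male cKO 2 Idi1 was at -0.17.

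The interaction between genotype and sex, the difference of the female and the male log2 fold change, was not past the threshold for any of the 6 members by limma. No gene passed it (0.0% of 18197, with 4.23% at an unadjusted p under 0.05). The largest values were those of Fdft1 (-0.27, 95% interval -1.12 to 0.59) and Cyp51 (-0.26, 95% interval -0.62 to 0.10, adjusted p = 0.966). For Cyp51 the female estimate was below and the male estimate above 0, but this difference was within its error. Each estimate leaned on 1 library, since it was -0.04 in females without female cKO 3 and 0.01 in males without male cKO 3. A dependence on labelled sex was therefore not detectable in any member at this number of libraries. The contrast follows the labels, and in female cKO 3 and male cKO 1 the Y-linked genes go against them.

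**Figure D2:**
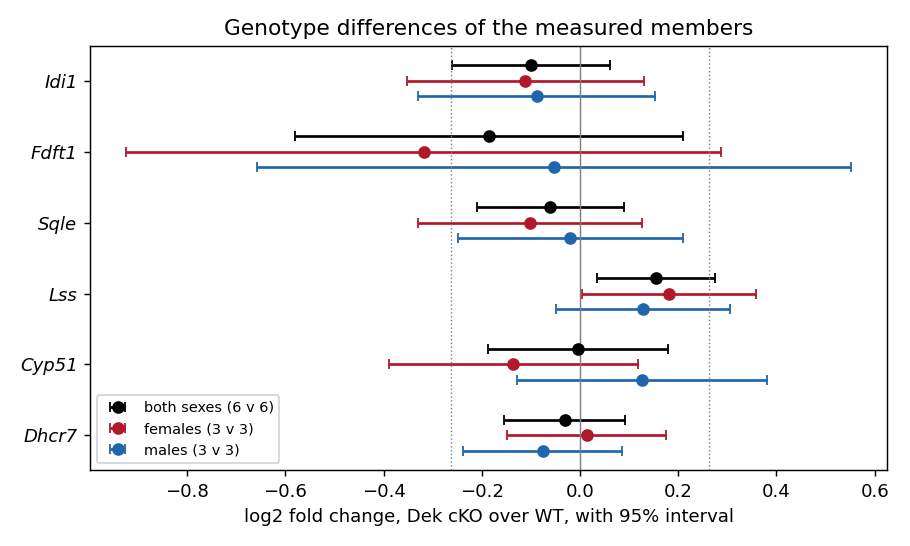
Log2 fold change of Dek cKO over WT (horizontal axis) with its 95% interval for the 6 measured members in both sexes (black, 6 against 6 libraries), females (red, 3 against 3) and males (blue, 3 against 3). Dotted lines mark a fold change of 1.2 in either direction. All intervals include 0 except those of Lss in both sexes (0.03 to 0.28) and in females, and that of Fdft1 is the widest.

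The members varied together only in part from library to library. Their mean centred log2 level was lowest in female cKO 3 (-0.26) and highest in female cKO 2 (0.17), 2 libraries of the same group by label but not by their Y-linked genes, and their summed level ran from 136 to 178 TPM in these libraries. Over the 12 libraries, whose values share scaling and unequal cell makeup, 9 of 15 pairs of members were positively correlated, with a median Pearson's r of 0.21. The closest pair was Sqle and Fdft1 (r = 0.92, and 0.65 without the 2 libraries of conflicting sex). Without those libraries 12 of 15 pairs were positive, with a median of 0.48. These correlations are descriptions and carry no test.

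The genes whose level followed the mean of the members most closely over the 12 libraries, among 14154 candidates averaging 1 TPM or more, were Gpam (r = 0.88), Cables1 (0.87), Cramp1l (0.84), Sae1 (0.84) and Msmo1 (0.84). Gpam starts the synthesis of glycerolipids, and Msmo1 is the enzyme that follows in the removal of methyl groups from lanosterol. All 5 had their lowest value in female cKO 3, which for Cramp1l was 0 TPM. Without the 2 libraries of conflicting sex r ranged from 0.41 for Sae1 to 0.74 for Msmo1. Fdps, which makes the farnesyl diphosphate that Fdft1 uses and which was looked up after its value was seen, ranked 14 (r = 0.81). Its r without the 2 libraries of conflicting sex is not given here. The ranks of the 15 other enzymes of the pathway ran from 5 (Msmo1) to 12029 (Ebp, r = -0.28), and Mvk was also negative (r = -0.14).

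The remaining 15 enzymes of the pathway likewise held no gene past the threshold. Their median log2 fold change was 0.03, with 11 higher and 4 lower in Dek cKO and none at an unadjusted p under 0.05. Ebp, the sterol isomerase, had the smallest unadjusted p of these enzymes (0.0585), at 13.6 to 20.8 TPM in WT and 17.1 to 21.4 TPM in Dek cKO libraries (log2 fold change 0.20, adjusted p = 0.772). In females Ebp was at 18.6 to 21.4 TPM in Dek cKO and 13.6 to 16.5 TPM in WT libraries (log2 fold change 0.38, adjusted p = 0.685). How many of all genes separate 3 from 3 female libraries in this way was not counted. The 3 female WT libraries are those with the prefix C57. The 9 libraries named CMV thus set the 6 Dek cKO libraries of both sexes against the 3 male WT libraries (17.1 to 20.8 TPM). The log2 fold change of Ebp there was 0.04, and genotype and sex are partly mixed in it. The middle female Dek cKO value (18.8 TPM) is that of female cKO 3.

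**Figure D3:**
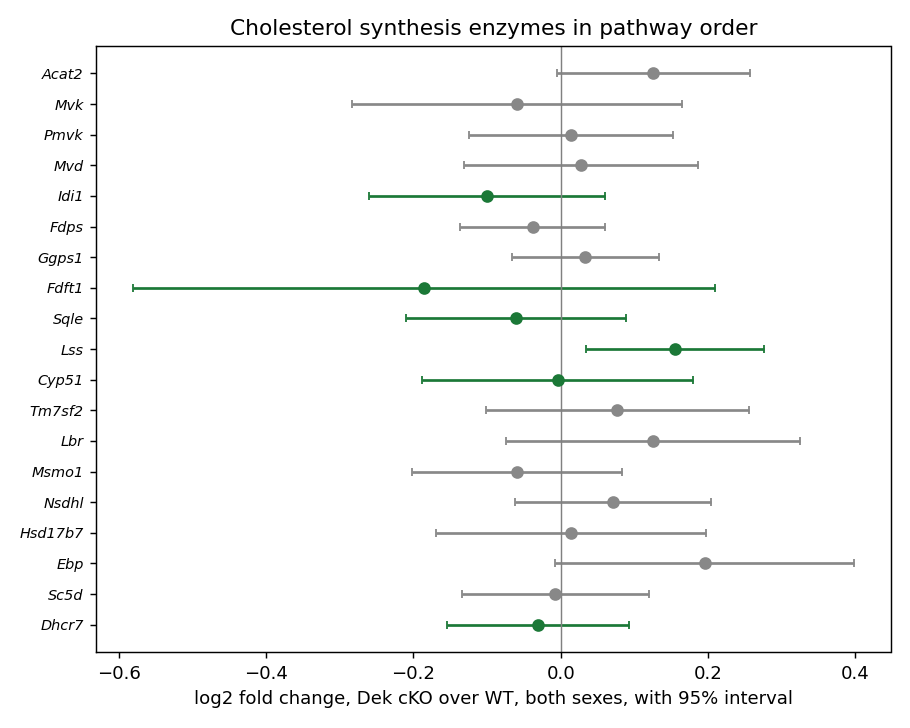
Log2 fold change of Dek cKO over WT in both sexes (horizontal axis) with its 95% interval for 19 cholesterol synthesis enzymes listed from the start of the pathway to its end. Green marks the 6 measured members and grey 13 other enzymes. Lss is the enzyme drawn whose interval does not include 0, and none passed the threshold.

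In the mean over their list the other enzymes moved with the members across libraries (Pearson's r = 0.67, Spearman's rho = 0.70 over 12 libraries, and r = 0.66 in the 10 without conflicting sex, given as a description). Single enzymes departed from this. In male cKO 3 Cyp51 had its highest value (30.9 TPM), while Idi1 and Mvk, the mevalonate kinase, had their lowest (21.5 and 14.5 TPM). These genes and this library were chosen after their values were seen.

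**Figure D4:**
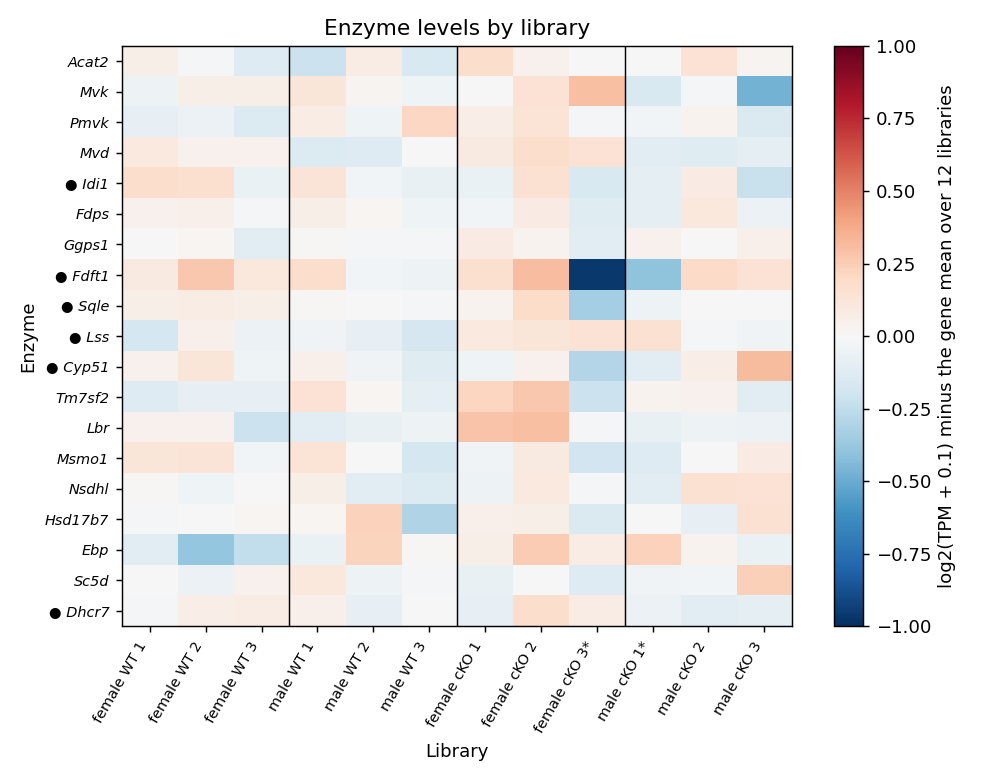
Log2(TPM + 0.1) minus the mean of the gene over 12 libraries (colour, red above and blue below) for 19 enzymes in pathway order (rows, dots mark the 6 members) in the 12 libraries (columns, asterisks mark the 2 libraries of conflicting sex). The darkest blue cell is Fdft1 in female cKO 3, and Mvk takes opposite colours in female cKO 3 and in male cKO 3.

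Genes that control or use the pathway were read in the same way. Among 7 regulators of SREBP processing none passed the threshold, and their median log2 fold change was -0.02. Srebf2, which encodes SREBP2, was at 64.5 to 76.4 TPM in WT and 61.5 to 80.5 TPM in Dek cKO libraries (log2 fold change 0.08, adjusted p = 0.901). Insig1, which retains the SREBP complex in the endoplasmic reticulum, was at 38.8 to 45.4 TPM and 39.9 to 48.8 TPM (log2 fold change 0.02, adjusted p = 0.982).

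None of 10 genes of uptake and intracellular transport passed the threshold, and their median log2 fold change was 0.05. Among 11 genes of efflux, storage and turnover none passed, with a median log2 fold change of 0.01. Soat1, which esterifies cholesterol for storage, was the gene of these lists whose genotypes did not overlap. It measured 2.08, 1.80, 1.73, 2.91, 1.91 and 2.73 TPM in the WT libraries and 1.60, 1.197, 1.25, 1.39, 1.59 and 1.32 TPM in the Dek cKO libraries. All 6 Dek cKO values lay below all WT values, as the values of one genotype did for 0.676% of all genes. The log2 fold change was -0.60 (95% interval -0.94 to -0.26), with an adjusted p of 0.311.

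Cell type markers were set beside the members because whole hippocampus mixes many cells, and fewer cells of a type cannot be told apart from less RNA per cell. No marker of any of the 10 lists passed the threshold. No marker was at exactly 0, but Mag, an oligodendrocyte marker, was at 0.0024 TPM in male WT 2. That is below the 0.1 TPM added before log2, and the other libraries had 4.39 to 28.6 TPM. Oligodendrocyte markers (8 genes) summed to 2434 to 5031 TPM in WT (median 4624 TPM) and 2790 to 4564 TPM in Dek cKO libraries (median 3846 TPM). The lowest WT sum was that of male WT 2, and the other 5 lay at 4418 to 5031 TPM. Astrocyte markers (7 genes) summed to 1278 to 1407 TPM and 1183 to 2261 TPM. The highest astrocyte sum was in male cKO 3, the library with the highest Cyp51, where Gfap alone reached 1267 TPM. The other astrocyte markers did not all rise there. Aqp4 was at its highest of the 12 libraries (99.4 TPM) and Gja1 at its lowest (68.6 TPM). Choroid plexus markers (5 genes), from tissue that adjoins the hippocampus, ranged from 69.5 to 3039 TPM in WT and from 45.8 to 4443 TPM in Dek cKO libraries. The part of these differences in the levels of the members was not tested. Over the 12 libraries the mean of the members had a Pearson's r of 0.19 with that of the oligodendrocyte markers, -0.13 with astrocyte markers and -0.15 with choroid plexus markers, as a description. Over the 10 libraries without conflicting sex these were 0.48, 0.0014 and 0.081. The low Mag value enters the oligodendrocyte mean of male WT 2 (-1.36), the lowest of the 12 libraries.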

How the data were processed

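Hippocampal RNA of 12 mice was sequenced, and the authors deposited 1 table of TPM with a column for each library. The paper names Trim Galore, SortMeRNA, STAR, Salmon, tximport and DESeq2 with GRCm38, whereas the submitters' processing notes name kallisto and mm10, and the sources used here do not say which wrote the table. TPM as deposited keeps no read counts, so the DESeq2 test could not be repeated. Of 26409 rows, 25245 matched the mouse GENCODE release M21 by Ensembl ID and 1164 did not.

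Values were taken as log2(TPM + 0.1) for 18197 genes averaging 0.1 TPM or more, which understates changes of low genes. Genotypes were compared with limma (version 3.58.1, R 4.3.3; trended prior variance, two-sided, Benjamini-Hochberg adjustment over all tested genes). The comparison of both sexes used 6 against 6 libraries, and those within sexes and of the interaction used 1 fit of 4 groups. The threshold was a fold change over 1.2 together with an adjusted p below 0.05. Groups and sexes follow the labels, and the fit was tested on simulated data. Further genes are named where their list's rule gave them, namely Srebf2, Insig1, the gene with the smallest unadjusted p of each list in both sexes, and the 5 genes most correlated with the members. Some genes that the rule gave are not reported here. Any other gene was chosen after its value was seen.

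The members, gene lists and motifs were chosen with earlier results of these data known. The alternatives were other pseudocounts, filters, scalings, prior variances, covariates and subsets of libraries, and each library left out in turn.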

Additional observations from a re-analysis of the deposited data

How the results depend on the processing

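No member passed the threshold in any comparison under any alternative. Of 534 alternative estimates for the members, 501 kept their direction and 33 turned it. The number of genes past the threshold was less stable. In both sexes it was 27, and it became 17 without a filter on low values and 3 with a replicate block. It was 10 in the libraries named CMV, which hold no female WT. Without the 2 libraries of conflicting sex (added after seeing the data) it was 12. In females it was 3, and became 7 without a trend in the prior variance, 1 with a replicate block, 6 without the conflicting libraries and 1 in a fit on that sex. In males it was 3, and became 6 without a filter, without a trend, without the conflicting libraries and in a fit on that sex, and 1 with a replicate block. For the interaction it was 0, and became 2 without a filter, 2 without a trend and 3 without the conflicting libraries. Leaving out each library in turn gave 13 (without female cKO 2) to 27 genes in both sexes, 1 (without female cKO 1) to 8 (without female WT 1) in females, 2 (without male WT 1) to 7 (without male WT 3) in males and 0 to 1 for the interaction. The replicate block was run although the numbers do not pair the samples (r between -0.04 and 0.04 for libraries of equal number), and it changed no call of a member. The causes were not tested.

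Without the 2 conflicting libraries the log2 fold change in both sexes became 0.021 for Sqle, 0.11 for Fdft1 and 0.094 for Cyp51. In females it became 0.047 for Sqle and 0.081 for Fdft1, and the median of the members moved from -0.11 to 0.026. In males it became 0.14 for Fdft1, and the interaction became 0.051 for Sqle and 0.032 for Idi1. Cyp51 was at 0.033 in the libraries named CMV, which hold no female WT. Dhcr7 in females was at -0.0040 after median ratio rescaling and -0.00011 after quantile normalization. With each library left out, both sexes gave -0.10 to 0.00086 for Sqle, -0.068 to 0.054 for Cyp51 and -0.0092 to 0.049 for Insig1. Females gave -0.21 to 0.047 for Sqle, -0.56 to 0.081 for Fdft1 and -0.046 to 0.082 for Dhcr7, with a median of the members of -0.20 to 0.026, whose upper end is that without female cKO 3. Males gave -0.16 to 0.14 for Fdft1. The interaction gave -0.19 to 0.066 for Sqle, -0.11 to 0.058 for Idi1, -0.50 to 0.13 for Fdft1 and -0.0057 to 0.11 for Lss.

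With 3 libraries a group small differences cannot be resolved, TPM gives no counting error, and p-values cover the spread between these libraries only. Where leaving out a library changes the sign of Fdft1 or Sqle in females, that library is female cKO 3, and for Fdft1 in males the highest value is that without male cKO 1.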
